A study of Homo sapiens with 3 samples.

Results

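The matrix metalloproteinases described here are 10 members of the MMP family, MMP1, MMP2, MMP3, MMP7, MMP9, MMP10, MMP12, MMP13, MMP14 and MMP28, taken by gene symbol from a table of 28890 genes. All 10 were listed. They were measured by RNA sequencing in Cal-33, a cell line established from a human squamous carcinoma of the tongue. The 3 libraries were made 72 h after transfection: siControl received a control siRNA, sip53 an siRNA that targets p53, and siBACH1 an siRNA that targets BACH1. The genotype label is WT for each library, so the groups differ in the transfected siRNA, and each group is 1 library of the same line. No difference below therefore has a replicate check, and differences are described without a test. Values are TPM (transcripts per 1000000), a level per transcript length, and the number of reads behind them is unknown.

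Matrix metalloproteinases are zinc-dependent proteases made as inactive proenzymes. Most are secreted, some are anchored in the plasma membrane, and between them they cleave collagens, laminins, proteoglycans and other proteins outside the cell. Their activity is opened by removal of a propeptide and closed by tissue inhibitors of metalloproteinases (TIMPs). In squamous carcinomas of the mouth they are studied for their part in breaching the basement membrane. Of the knockdown targets, BACH1 represses transcription until heme binds it, and p53 activates genes of cell cycle arrest and cell death after DNA damage.

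BACH1 transcript was at 15.2 TPM in siControl, 19.6 TPM in sip53 and 4.30 TPM in siBACH1, so the siBACH1 level was 28.4% of control. Each library had between 12113 and 12198 genes at 1.0 TPM or more. All 9 epithelial markers were above that level in every library, with a summed level of 7091 TPM in siControl, 6565 TPM in sip53 and 4751 TPM in siBACH1. Of these sums 4883, 4375 and 3101 TPM were the keratin KRT5, while EPCAM was at 159, 155 and 151 TPM. Fibroblast markers summed to between 4.18 and 5.32 TPM over 9 genes, of which 3.54 to 4.36 TPM was COL1A1. DCN was at 0.245 TPM in siControl, 0.507 TPM in sip53 and 1.12 TPM in siBACH1 (log2 change 0.77), while THY1 was listed at 0 throughout and PDGFRB was at no more than 0.112 TPM. Immune markers summed to between 36.7 and 42.8 TPM over 8 genes, of which 32.0 to 38.3 TPM was CD68, a lysosomal protein. CD14 was at 1.79, 2.40 and 2.57 TPM and CSF1R at 1.48, 1.63 and 1.33 TPM in siControl, sip53 and siBACH1, and PTPRC was at no more than 0.196 TPM. Endothelial markers summed to between 17.9 and 20.3 TPM over 6 genes, of which 16.0 to 18.7 TPM was the cadherin CDH5. VWF was at 1.57, 0.962 and 1.22 TPM in the same order, while KDR and CLDN5 were listed at 0 throughout.

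The 10 proteases covered a wide range of levels. MMP14, a membrane-anchored collagenase that also activates the MMP2 proenzyme, stood highest, at 94.5 TPM in siControl, 99.6 TPM in sip53 and 84.7 TPM in siBACH1. It ranked 1388 among the genes at 1.0 TPM or more in the control library and made up 55.9% of the summed TPM of the 10 genes there. Below it in the control came MMP28 at 21.8 TPM, MMP10 at 17.9 TPM, MMP2 at 17.8 TPM and MMP1 at 10.1 TPM. MMP7 at 3.41 TPM, MMP13 at 1.69 TPM and MMP12 at 1.16 TPM followed, and MMP3 at 0.635 TPM and MMP9 at 0.0855 TPM were below 1.0 TPM. With no replicates, neighbours in this order cannot be separated by their spread, and MMP10 and MMP2 were almost level in the control. In sip53 MMP10 took the place after MMP14, and in siBACH1 it stood after MMP28 and MMP2.

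**Figure D1:**
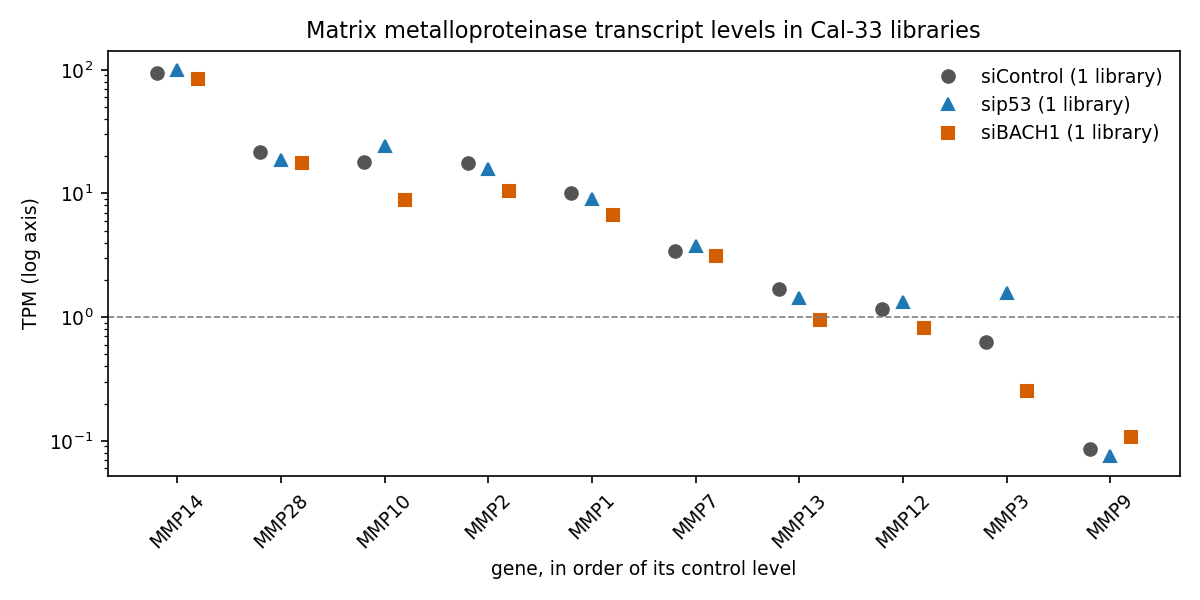
TPM of each of the 10 genes on a log axis, in order of the control level, with 1 point for each of the 3 libraries and a dashed line at 1.0 TPM. MMP14 lies between 84.7 and 99.6 TPM in all 3 libraries, MMP10 spreads from 8.91 to 24.1 TPM, and MMP9 stays at or below 0.107 TPM.

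The summed level of the 10 genes was 169 TPM in siControl, 175 TPM in sip53 and 134 TPM in siBACH1. Without MMP14, the other 9 summed to 74.5, 75.6 and 49.2 TPM in the same order. The sum in the p53 knockdown library was thus 1.04 times that of the control and in the BACH1 knockdown library 0.793 times that of the control. In bulk RNA, fewer cells that express a gene and less of its RNA per cell cannot be told apart.

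Differences between libraries are given as log2((TPM + 1)/(TPM + 1)). The added pseudocount of 1.0 TPM pulls the values of weakly expressed genes towards 0. A gene counted as measured at 1.0 TPM or more in 1 or both libraries, and as higher or lower at a difference of 1.5-fold on that scale, which is 0.58 in log2 units. In BACH1 knockdown against control, 2 of the 8 measured members were lower (MMP10 and MMP2) and 0 were higher. Over all 12437 measured genes 3.69% were lower and 1.78% higher. All 8 members had a negative log2 change, as did 66.1% of all measured genes, and their median was -0.37 against -0.08 over all measured genes. Mitochondrially encoded genes took 24.8% of the listed TPM in siControl, 29.2% in sip53 and 28.2% in siBACH1, which leaves less of the total for other genes in the knockdown libraries. Without these and the ribosomal protein genes the members' median in siBACH1 was -0.37, against -0.01 over all measured genes. That setting scales the remaining TPM up, which weakens the pull of the pseudocount. With all genes kept and TPM rescaled to a median ratio of 1, the members' median was -0.32, against -0.0002 over all measured genes. In p53 knockdown against control, 1 of the 9 measured members was higher (MMP3) and 0 were lower, where 1.54% of 12412 measured genes were higher and 2.88% lower. In that comparison 5 members were positive and 4 negative, with a median of 0.08 against -0.07 over all measured genes, and the members' median turned to -0.16 when a minimum of 5.0 TPM left 5 of them. Both comparisons use the same control library.

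**Figure D2:**
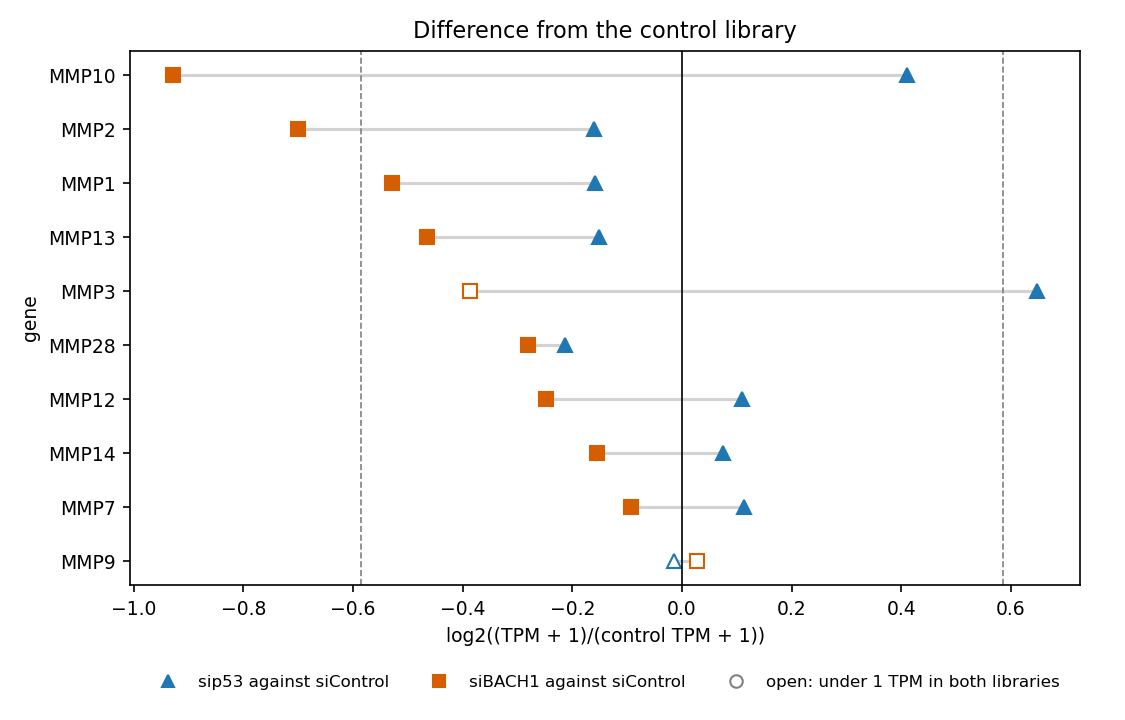
Difference of each gene from the control library on the log2((TPM + 1)/(TPM + 1)) scale, for sip53 (triangles) and siBACH1 (squares), with dashed lines at 1.5-fold and open symbols for genes under 1.0 TPM in both libraries compared. MMP10 lies at -0.93 in siBACH1 and 0.41 in sip53, the widest distance between the knockdowns, and MMP9 lies near 0 in both.

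The stromelysins MMP3 and MMP10 are close relatives that cleave proteoglycans, laminin and other matrix proteins and can activate other MMP proenzymes. MMP10 was at 17.9 TPM in siControl, 24.1 TPM in sip53 and 8.91 TPM in siBACH1. It was lowest in the BACH1 knockdown library, at 49.9% of the control, and highest in the p53 knockdown library, at 135% of the control. The log2 change was -0.93 in siBACH1, where 0.957% of measured genes had a more negative value, and 0.41 in sip53, where 96.7% of measured genes had a smaller value. MMP3 was at 0.635 TPM in siControl, 1.56 TPM in sip53 and 0.251 TPM in siBACH1. Its libraries had the same order as those of MMP10, with sip53 highest and siBACH1 lowest, but its levels lay around 1.0 TPM and below. MMP3 was at 246% of the control in sip53 and 39.6% in siBACH1. The log2 change of MMP3 was 0.65 in sip53, just past 1.5-fold, and it no longer passed with a pseudocount of 5.0 TPM, at 0.22. In siBACH1 it was at -0.39 and did not count as measured, since neither library reached 1.0 TPM. With a pseudocount of 0.1 TPM the changes were 1.18 in sip53 and -1.07 in siBACH1, so their size depended on the pseudocount.

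MMP3 and MMP10 also share sequence, which matters for how reads can be assigned. Of the 1756 distinct runs of 31 bases in the MMP10 transcripts of the GENCODE annotation, 7.12% also occur in transcripts of another gene, in each case MMP3. Of the 2047 runs of MMP3, 6.11% are shared, in each case with MMP10. The values of both genes are uncertain to the extent that reads from these runs were divided between them. Their summed level was 18.5 TPM in siControl, 25.6 TPM in sip53 and 9.17 TPM in siBACH1, which is also the order of MMP10 alone. Among the other members, 2.97% of the runs of MMP2 occur in another annotated gene, AC007336.3, and 1.26% of those of MMP13 in other genes, while MMP1, MMP7, MMP9, MMP12, MMP14 and MMP28 share 0.

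Promoter windows of 250 bases before the annotated start were found for 3 of the 10 members in RefSeq (GRCh38.p14), and all 3 are shown. They belong to MMP10, to a neighbour in the same gene cluster (MMP7) and to the member with the highest level (MMP14). MMP10 had the most negative log2 change of the members in siBACH1 against control, with the pseudocount of 1.0 TPM. Capitals mark matches to TGANTCA, the letters of an AP-1 site with any middle base, and to TATAAA, the letters of a TATA box, on either strand. The windows are chr11:102780629-102780878 (minus strand) for MMP10, chr11:102530748-102530997 (minus strand) for MMP7 and chr14:22836335-22836584 (plus strand) for MMP14. Positions before the start refer to the RefSeq start. In the GENCODE annotation MMP7 begins at 102530753 and MMP14 at 22836557, inside these windows.
MMP10: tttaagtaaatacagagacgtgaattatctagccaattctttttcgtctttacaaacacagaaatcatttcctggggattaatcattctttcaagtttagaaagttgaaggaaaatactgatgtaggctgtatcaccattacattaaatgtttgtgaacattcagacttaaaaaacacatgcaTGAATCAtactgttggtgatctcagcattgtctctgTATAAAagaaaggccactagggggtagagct
MMP7: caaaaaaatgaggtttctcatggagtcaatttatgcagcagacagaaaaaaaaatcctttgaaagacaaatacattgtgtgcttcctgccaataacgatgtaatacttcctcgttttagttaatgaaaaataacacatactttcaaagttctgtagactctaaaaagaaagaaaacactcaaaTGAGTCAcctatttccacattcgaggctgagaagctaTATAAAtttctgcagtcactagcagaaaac
MMP14: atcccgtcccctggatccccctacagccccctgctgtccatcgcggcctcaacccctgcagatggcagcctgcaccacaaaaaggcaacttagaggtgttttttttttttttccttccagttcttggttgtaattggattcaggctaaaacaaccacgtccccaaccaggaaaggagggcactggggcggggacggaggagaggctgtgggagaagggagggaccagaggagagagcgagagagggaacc

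In the MMP10 and MMP7 windows the TGANTCA match lay at the same place, 67 to 61 bases before the start. It read TGAATCA in MMP10 and TGAGTCA in MMP7. The TATAAA match lay 31 to 26 bases before the start in MMP10 and 30 to 25 bases in MMP7. MMP14 held neither. Of 35116 RefSeq windows of the same length, 6.57% held TGANTCA, 4.20% held the narrower TGAGTCA that it includes, and 10.7% held TATAAA. TGACNNNGC, the core letters of an antioxidant response element, were in 10.9% of windows and in 0 of these 3, and AGGAAG, the core letters of an ETS site, were in 28.7% of windows and, among the 3, in MMP7, with 2 matches. Such matches describe letters in these windows, and binding was not measured.

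The collagenases MMP1 and MMP13 cut fibrillar collagen. MMP1 was at 10.1 TPM in siControl, 8.95 TPM in sip53 and 6.70 TPM in siBACH1. MMP13 was at 1.69 TPM in siControl, 1.42 TPM in sip53 and 0.948 TPM in siBACH1. Both were lowest in siBACH1, at 66.3% of control for MMP1 and 56.2% for MMP13, and both stood between the other libraries in sip53. On the log2 scale with the pseudocount they were at -0.53 and -0.46 in siBACH1, short of 1.5-fold, and at -0.16 and -0.15 in sip53. Both passed 1.5-fold in siBACH1 with a pseudocount of 0.1 TPM, at -0.59 and -0.77.

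The gelatinases MMP2 and MMP9 cut denatured collagen and type IV collagen of basement membranes. MMP2 was at 17.8 TPM in siControl, 15.8 TPM in sip53 and 10.5 TPM in siBACH1. It was lowest in siBACH1, at 59.4% of control. Its log2 change was -0.70 in siBACH1, where 2.2% of measured genes had a more negative value, and -0.16 in sip53. With a pseudocount of 5.0 TPM the siBACH1 change was -0.55, short of 1.5-fold. MMP9 was at 0.0855 TPM in siControl, 0.0747 TPM in sip53 and 0.107 TPM in siBACH1, too low to count as measured in any comparison.

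The remaining members were short of 1.5-fold in both knockdowns. MMP7 (matrilysin), a small epithelial MMP that lacks the hemopexin domain of most relatives, was at 3.41 TPM in siControl, 3.77 TPM in sip53 and 3.13 TPM in siBACH1. MMP12 (metalloelastase), which cuts elastin and is best known from macrophages, was at 1.16, 1.33 and 0.817 TPM in the same order of libraries. MMP28 (epilysin), a family member of keratinocytes and other epithelia, was at 21.8, 18.7 and 17.8 TPM. Log2 changes of MMP7, MMP12, MMP14 and MMP28 lay between -0.21 and 0.11 in sip53 and between -0.28 and -0.09 in siBACH1. MMP7, MMP12 and MMP14 were positive in sip53 and negative in siBACH1, whereas MMP28 was negative in both.

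**Figure D3:**
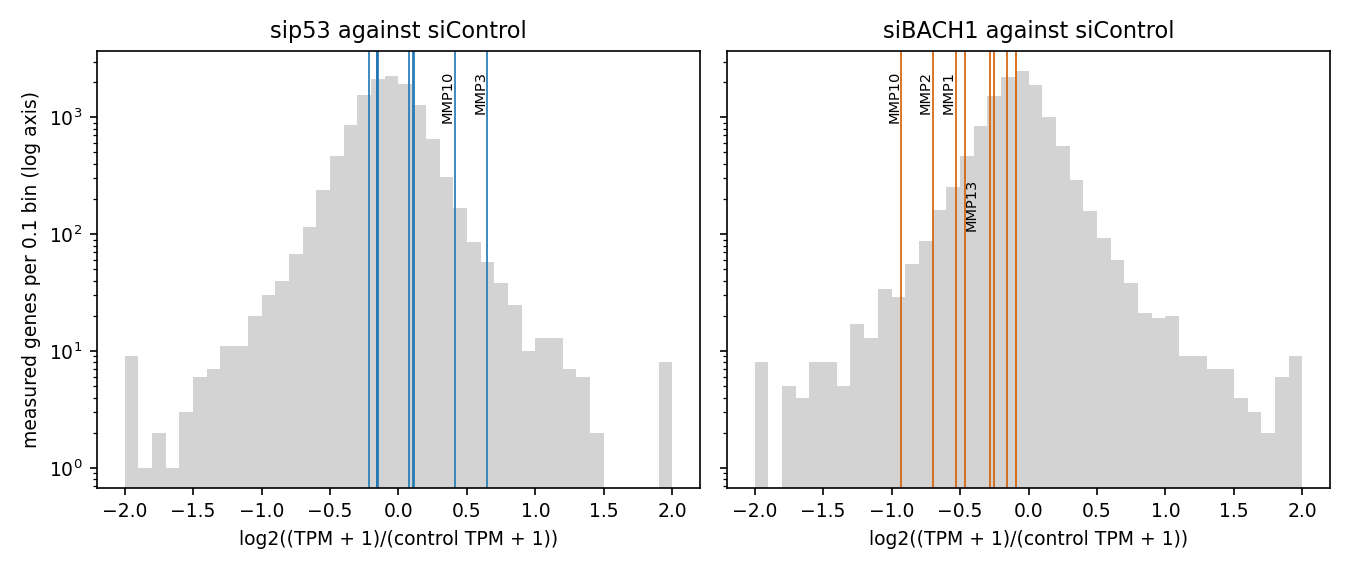
Number of measured genes (log axis) by log2 change against the control library in bins of 0.1, for sip53 (left) and siBACH1 (right), with a line for each measured member and names for those past 0.4 in size; the end bins also hold genes beyond 2 in size. In siBACH1 the member lines lie between -0.93 and -0.09, and in sip53 between -0.21 and 0.65.

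The knockdown libraries were compared with each other directly, without the control. In BACH1 knockdown against p53 knockdown, 2 of the 9 measured members were lower (MMP10 and MMP3) and 0 were higher, beside 3.18% lower and 2.84% higher of 12390 measured genes. All 9 were negative, as were 51.9% of all measured genes, and their median was -0.36 against -0.01. MMP10 had a log2 difference of -1.34, with a siBACH1 level at 37.0% of that in sip53, and 0.218% of measured genes had a more negative value. MMP3 was at -1.03, MMP2 at -0.54, MMP1 at -0.37 and MMP12 at -0.36. MMP10 was the only member past 1.5-fold here with a minimum of 5.0 TPM, and with a pseudocount of 5.0 TPM.

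Ratios between genes within a library do not depend on how the libraries are scaled. MMP10 was at 1.77 times the TPM of MMP1 in siControl, 2.69 times in sip53 and 1.33 times in siBACH1. MMP1 was at 5.99, 6.29 and 7.06 times the TPM of MMP13 in the same order. The ratio of MMP2 to MMP14, its activator, was 0.188 in siControl, 0.159 in sip53 and 0.124 in siBACH1, lowest in the BACH1 knockdown library.

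Of the 10 genes, 6 lie in the MMP cluster on chromosome 11 (MMP7, MMP10, MMP1, MMP3, MMP12 and MMP13), between 102520508 and 102955734 (GRCh38, GENCODE annotation), all on the minus strand. MMP10 spans 102770503 to 102780628 and MMP3 102835801 to 102843803. The other 4 lie elsewhere, MMP2 on chromosome 16 (55389700 to 55506691, plus strand), MMP9 on chromosome 20, MMP14 on chromosome 14 (22836557 to 22849027, plus strand) and MMP28 on chromosome 17. The 6 cluster genes summed to 34.9 TPM in siControl, 41.1 TPM in sip53 and 20.8 TPM in siBACH1, and the 4 others to 134, 134 and 113 TPM. The siBACH1 sum was 0.596 times the control for the cluster genes and 0.844 times for the others. Single genes weigh on these sums, since MMP14, at 0.897 times the control, gave 94.5 of the 134 TPM of the others. MMP2, outside the cluster, was at 0.594 times the control, and MMP7, inside it, at 0.920 times. A further 3 MMP genes within the cluster, MMP8, MMP20 and MMP27, were at 0.108 TPM or less in every library.

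Of the flanking protein-coding genes within 500 kb, 6 reached 1.0 TPM in a library. YAP1, a transcriptional coactivator, was at -0.11 in siBACH1, TMEM123 at -0.11, DCUN1D5 at -0.07 and DYNC2H1 at -0.22. The apoptosis inhibitors BIRC2 and BIRC3 were at 0.13 and 0.49. None of these 6 was at 1.5-fold in either knockdown, and the largest in sip53 was BIRC2 at 0.29. Among all measured genes 1.54% were higher and 2.88% lower in sip53, and 1.78% higher and 3.69% lower in siBACH1.

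**Figure D4:**
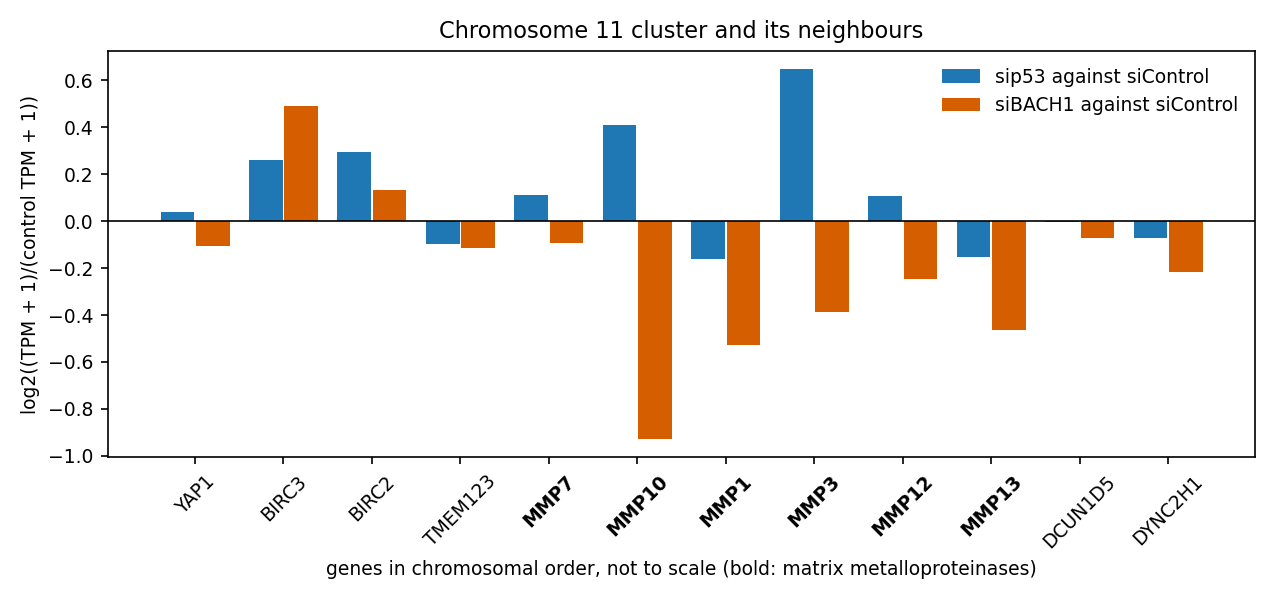
Log2 change against the control library of genes that reach 1.0 TPM in any library, in chromosomal order through the chromosome 11 cluster and 500 kb on either side, with sip53 and siBACH1 as bars and the MMP genes in bold. The siBACH1 bars of the 6 MMP genes lie between -0.93 and -0.09, and those of the flanking genes between -0.22 and 0.49.

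The TIMPs and other MMP inhibitors had 0 of 5 measured genes past 1.5-fold in either knockdown, with a median log2 change of 0.07 in sip53 and -0.23 in siBACH1. The medians over all measured genes were -0.07 and -0.08. Of these genes 1.54% were higher and 2.88% lower in sip53, and 1.78% higher and 3.69% lower in siBACH1. TIMP3, an inhibitor held in the matrix, was at 20.8 TPM in siControl, 23.6 TPM in sip53 and 14.8 TPM in siBACH1. TIMP3 thus had the same order of libraries as MMP10. In siBACH1 against sip53 it was past 1.5-fold, at -0.64, where 3.18% of all measured genes were lower. TIMP2, which also takes part in MMP2 activation on MMP14, was at 15.2, 16.2 and 12.7 TPM, and TIMP1 at 38.6, 32.8 and 33.5 TPM. TIMP4 was at 1.79, 1.93 and 2.82 TPM, with a log2 change of 0.45 in siBACH1, and the membrane-anchored inhibitor RECK was at -0.12 in sip53 and -0.38 in siBACH1. A2M, a plasma protease trap, was listed at 0 throughout. The TPM ratio of MMP10 to TIMP1 was 0.462 in siControl, 0.734 in sip53 and 0.266 in siBACH1, and that of MMP14 to TIMP2 was 6.23, 6.16 and 6.65.

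Genes of proMMP activation had 0 of 8 measured members past 1.5-fold in sip53, with a median of -0.30, and 1 lower in siBACH1, with a median of -0.16. Over all measured genes 3.69% were lower in siBACH1, and the medians were -0.07 in sip53 and -0.08 in siBACH1. The lower gene was the proprotein convertase PCSK6 (7.11 TPM in siControl, 5.34 TPM in sip53 and 4.12 TPM in siBACH1, log2 change -0.66). FURIN, the convertase that cleaves the MMP14 and MMP28 proenzymes, was at -0.31 in sip53 and -0.11 in siBACH1, PCSK5 at -0.31 and -0.39, and the plasminogen activator PLAT at -0.47 and -0.21. The membrane protease ST14 was at -0.29 in siBACH1. Surface partners of MMPs had 0 of 5 past 1.5-fold in either knockdown, with medians of -0.18 in sip53 and -0.19 in siBACH1. Among all measured genes 1.54% were higher and 2.88% lower in sip53, and 1.78% higher and 3.69% lower in siBACH1. BSG, an inducer of MMP expression in neighbouring cells, was at -0.31 and -0.19, and the integrin subunit ITGAV at 0.13 and -0.36. SDC1 was at -0.22 and -0.19, CD151 at -0.18 in sip53 and the hyaluronan receptor CD44 at -0.23 in siBACH1.

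Of 16 transcription factors known to act on MMP promoters, 1 was lower in sip53 and 0 were past 1.5-fold in siBACH1, with medians of -0.08 and -0.22. Over all measured genes 2.88% were lower in sip53, and the medians were -0.07 and -0.08. The gene lower in sip53 was the ETS factor ETV4 (20.4 TPM in siControl, 11.9 TPM in sip53 and 20.4 TPM in siBACH1, log2 change -0.74), and its relative ETV5 was at -0.50, ETS2 at 0.27 and the AP-1 subunit JUNB at -0.30. In siBACH1 the most negative were the AP-1 subunits JUND (43.2 to 29.8 TPM, -0.52), FOS (-0.47), JUNB (-0.46) and FOSB (-0.39). All 7 AP-1 genes of the list, FOS, FOSB, FOSL1, FOSL2, JUN, JUNB and JUND, were negative in siBACH1, a count made after their values were seen, with 0 of them past 1.5-fold. Of all 16 factors 14 were negative, as were 66.1% of all measured genes.

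Ligands that induce MMPs had 0 of 6 measured genes past 1.5-fold in sip53 and 2 lower in siBACH1, with medians of 0.01 and -0.44. Over all measured genes 3.69% were lower in siBACH1, and the medians were -0.07 and -0.08. The EGF receptor ligand AREG was at 41.2 TPM in siControl, 45.1 TPM in sip53 and 26.2 TPM in siBACH1, and TGFB1 at 18.3, 15.3 and 11.7 TPM, log2 changes of -0.64 and -0.61 in siBACH1. The interleukin IL1A was at -0.57 in siBACH1 and 0.19 in sip53, and HBEGF at -0.30 and -0.25. TNF, IL6, OSM and HGF were listed at 0 in each library.

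Matrix substrates of MMPs had 0 of 11 measured genes past 1.5-fold in sip53, and 1 higher and 1 lower in siBACH1, with medians of -0.08 and -0.12. Over all measured genes 1.78% were higher and 3.69% lower in siBACH1, and the medians were -0.07 and -0.08. COL17A1, the hemidesmosome collagen, was at 29.1 TPM in siControl, 39.8 TPM in sip53 and 17.6 TPM in siBACH1. It was the lower gene in siBACH1, at -0.69, and was at 0.44 in sip53. The higher gene was fibronectin (FN1), at 1.29, 0.738 and 2.48 TPM in the same order of libraries, and it was highest in siBACH1 at 0.60. COL7A1, the anchoring fibril collagen, was at -0.49 in sip53 and -0.25 in siBACH1, the basement membrane collagen COL4A1 at -0.35 in sip53, and TNC at -0.44 in siBACH1.

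The protein-coding genes whose pair of log2 changes against the control lay nearest to that of MMP10, among 9856 with at least 5.0 TPM in a library, were FOXQ1, MXD4, ARHGAP11B, BANK1 and COL17A1. Their distances were between 0.116 and 0.239 log2 units over the 3 libraries. FOXQ1, a forkhead transcription factor, was at 48.7 TPM in siControl, 61.7 TPM in sip53 and 26.8 TPM in siBACH1. With 3 libraries and a shared control, such likeness is a description only.

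Of the 9 epithelial markers, 3 were lower in siBACH1 (the keratins KRT5, KRT14 and KRT17) and 0 higher, against 0 in sip53, with medians of -0.39 and -0.03. Over all measured genes 3.69% were lower and 1.78% higher in siBACH1, with medians of -0.08 in siBACH1 and -0.07 in sip53. KRT17 was at 758 TPM in siControl, 768 TPM in sip53 and 438 TPM in siBACH1. KRT14 was at 215, 166 and 100 TPM in the same order, with a log2 change of -1.10 in siBACH1. The transcription factor TP63 was at 246, 210 and 172 TPM, with -0.51 in siBACH1. Of the 9 markers 7 were negative and 2 positive in siBACH1, where keratins KRT8 and KRT18 had log2 changes of 0.03 and 0.01. What part the difference in KRT5, KRT14 and KRT17 has in the MMP values was not tested.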

How the data were processed

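The authors deposited 1 table of TPM with a column for each of the 3 libraries. The submitters' processing notes name bcl2fastq 2.20, which writes reads from base calls, and kallisto 0.44.0, which estimates transcript abundance by pseudoalignment. The notes name the builds GRCh38, GRCm38 and mm10 without roles, and the table holds human symbols. For the annotation, the summing of transcripts to genes and the strand setting, the sources used here give nothing. Listed TPM summed to between 978371 and 979148 per library.

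Here, log2 changes were computed over the whole table in Python 3.11.15 with pandas 2.3.3, with a pseudocount and a minimum of 1.0 TPM and a threshold of 1.5-fold, and the steps were tested on simulated data. With 1 library per group no test was run. All 10 members are named. Of the 12 other gene lists, up to 4 genes with the largest absolute change per knockdown are named, and others were chosen after their values were seen. The members and lists were chosen with earlier results of these data known. Coordinates, GC content and shared runs come from GENCODE 29. Alternatives were other pseudocounts, minimums, scalings, a correction for GC content and length, and a 2-fold threshold. The p53 gene's own transcript is not reported here.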

Additional observations from a re-analysis of the deposited data

How the results depend on the processing

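Depth is unknown and there was 1 library per group, so limits come from level alone: MMP3, MMP9, MMP12 and MMP13 lay near or under 1.0 TPM. The share of all measured genes past the threshold was computed for the main setting alone. The counts of members under other settings therefore have no such share beside them. With a pseudocount of 0.1 TPM, 4 members were past 1.5-fold in siBACH1 against control, and the medians were -0.52 there and -0.54 in siBACH1 against sip53. With 5.0 TPM, 0 members passed in sip53 against control, 1 in siBACH1 against control and 1 in siBACH1 against sip53, with medians of -0.20 and -0.22 in the latter pair. With a minimum of 5.0 TPM, 0 passed in sip53 against control (median -0.16, a turned sign) and 1 in siBACH1 against sip53, and the siBACH1 median against control was -0.53. At 2-fold, 0 members passed in sip53 and 0 in siBACH1 against control, and 2 (MMP3 and MMP10) in siBACH1 against sip53. Without 13 mitochondrially encoded and 88 ribosomal protein genes, the members summed to 264 TPM in siControl, 287 TPM in sip53 and 221 TPM in siBACH1, because the remaining TPM are scaled up. Rescaling to a median ratio of 1 moved the median of all genes by under 0.1 and, like the GC content and length correction, left each count of members as it was. Of 210 log2 changes of single members under the alternatives, 2 had another sign, both of MMP9 under the GC content and length correction, at 0.12 in sip53 against control and -0.01 in siBACH1 against sip53. A minimum does not enter the log2 change of a gene, and a pseudocount cannot turn its sign. Only the scalings and the GC content and length correction, with 30 values each, could therefore turn a sign. No paired analysis was possible because each group is 1 library.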

Other observations

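Of the 13 other MMP genes, 3 reached 1.0 TPM in a library. MMP11 (stromelysin-3) was at 4.47 TPM in siControl, 2.77 TPM in sip53 and 3.57 TPM in siBACH1, lowest in sip53 with a log2 change of -0.53. The membrane-anchored MMP15 was at 3.79, 3.55 and 3.91 TPM and MMP17 at 1.00, 0.849 and 1.35 TPM. None of these passed 1.5-fold in any of the 3 comparisons. In those comparisons 1.54% to 2.84% of all measured genes were higher and 2.88% to 3.69% lower.

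The related ADAM and ADAMTS proteases, which shed membrane proteins or cut proteoglycans, had 1 of 8 measured genes higher in sip53 and 1 lower in siBACH1, with medians of -0.03 and 0.00. For comparison, 1.54% of all measured genes passed 1.5-fold upward in sip53, and 3.69% passed it downward in siBACH1. Medians over all measured genes were -0.07 for sip53 and -0.08 for siBACH1. ADAMTS1 was at 5.27 TPM in siControl, 9.10 TPM in sip53 and 6.58 TPM in siBACH1, and ADAMTS15 at 2.12, 1.71 and 0.728 TPM. The sheddase ADAM10 stayed between 117 and 128 TPM, and ADAM15 was at 155, 121 and 166 TPM, lowest in sip53.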
